A study of Rattus norvegicus with 6 samples.

Results

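Heat shock proteins and their co-chaperones were followed in rat liver through 79 of 14217 genes, measured by 120 of the 31042 probe sets that are not array controls. They were chosen by gene symbol: every probe set that the platform annotation gives a single symbol beginning with Hspa, Hspb, Hspd, Hspe, Hsph, Hsp90, Dnaja, Dnajb or Dnajc, or Cct or Bag with a digit, and the factors Hsf1 and Hsf2. Male Sprague Dawley rats received tienilic acid (TA), a uricosuric diuretic withdrawn because of hepatitis, at 100 mg/kg by gavage with an equimolar amount of sodium bicarbonate, or sodium bicarbonate alone as vehicle. At 6 h after 1 dose, the liver RNA of 2 TA rats was hybridised to 1 array each and the RNA of 2 vehicle rats was pooled on 1 array. At 24 h, after doses at 0 and 16 h, 2 TA rats and 1 pool of 2 vehicle rats were measured in the same way, which makes 6 Affymetrix Rat230_2 arrays in all. The levels below are the deposited log2 values, so that a difference of 1 is a doubling. A vehicle pool averages its animals and has no replicate, and standard errors (SE) rest on the spread between the 2 TA animals of each time.

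Heat shock proteins are molecular chaperones that bind unfolded or partly folded proteins. HSP70 proteins hold and release clients in a cycle driven by ATP, DnaJ proteins (HSP40) deliver clients to them and stimulate the ATPase, and HSP110 proteins, BAG domain proteins and Hspbp1 exchange the nucleotide. HSP90 finishes the folding of kinases and steroid receptors with a set of partners, the ring-shaped TRiC complex of Cct subunits folds actin and tubulin, and small heat shock proteins keep aggregating proteins soluble. In stress the factor Hsf1 binds repeated GAA blocks, the heat shock element, in promoters of the inducible genes, while the endoplasmic reticulum (ER) has its own chaperones, driven by the unfolded protein response. In liver, transcripts of several of these genes are also known to follow the daily rhythm of feeding and body temperature.

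Of the 120 probe sets, 94 of 70 genes lay above the low-value filter (a mean over the 6 arrays above 2.82). The 26 others had means of 2.70 or less and moved by at most 0.22 across the arrays. Hspa1l, Hspa12a, Hspa12b, Hspb2, Hspb3, Hspb9, Dnajb3, Dnajb13 and Dnajc27 had no probe set above the filter. A further 6 probe sets carry several symbols, among them those of Hsp90aa1, Hspa8 and Hspa1b, and were not counted or described. A gene with several probe sets is given by the one with the highest mean. The symbol rule also takes in Hspbp1 and Hspbap1, which are partners of chaperones rather than small heat shock proteins. The arrays carried a liver profile, with albumin (Alb) at 16.54 to 16.67 on all 6. Arrays were grouped by the clock times in the Hybridize Date lines of the instrument files, without comparing the dates. The 6 h vehicle pool and the first 6 h TA animal fall in one group and the remaining 4 arrays in another. Each group is called a hybridize run here, a name that comes from this grouping. All 24 h arrays thus belong to the second run, where the second TA animal alone stands for 6 h, and time and run partly go together.

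Between the times, a larger share of the members than of all probe sets was higher at 24 h on every array. In 28 of the 94 member probe sets (29.8%) all 3 arrays of 24 h lay above all 3 arrays of 6 h, against 10.9% of all 18625 probe sets tested. In 7 of the 94 (7.45%) all 3 arrays of 24 h lay below, against 14.1% of all. By gene, 23 of 70 were above (32.9%) and 4 below (5.71%), against 13.3% and 15.1% of the 10449 genes past the filter. Within the second hybridize run alone, which leaves 1 array at 6 h, 49 of 94 were above (52.1%, against 24.3% of all) and 18 below (19.1%, against 39.6%). The median difference of 24 h minus 6 h over the 94 probe sets was 0.14 in TA and 0.05 in vehicle, against 0.00 and -0.01 over all probe sets. Without TA animal 2 of 6 h the median in TA was 0.08, and without animal 1 it was 0.21.

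No single member passed the adjusted threshold for time. In limma's test over all probe sets, 0 of 94 were called in TA (0% of all) and 0 of 94 in vehicle (0.00537% of all), with a smallest adjusted p among members of 0.18 in TA and 0.43 in vehicle. At an unadjusted p under 0.05, 23 of 94 were higher in TA at 24 h (24.5%, against 7.89% of all) and 5 were lower (5.32%, against 6.93%). Both counts fell when any TA animal was left out, the higher count most without TA animal 2 of 6 h. No share over all probe sets is given for those fits. The members' median difference in TA was then 0.08 to 0.21. In vehicle, where 1 array stands against 1, each in another hybridize run, 7 were higher (7.45%, against 3.88%) and 4 lower (4.26%, against 5.43%). The higher count in vehicle fell without either TA animal of 6 h, and the lower count fell without any TA animal. Quantile normalization gave 13 higher. No share over all probe sets is given for these settings. An additive model of time and treatment over all 6 arrays, chosen after the data were seen, called 0 of 94 members (0.0161% of all), with a smallest adjusted p among them of 0.062, and gave 26 higher (27.7%, against 9.26%) and 8 lower (8.51%, against 9.56%) at an unadjusted p under 0.05. Time after the first dose, the number of doses and gavages, and the hour of the day differ together between these groups and cannot be told apart.

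**Figure D1:**
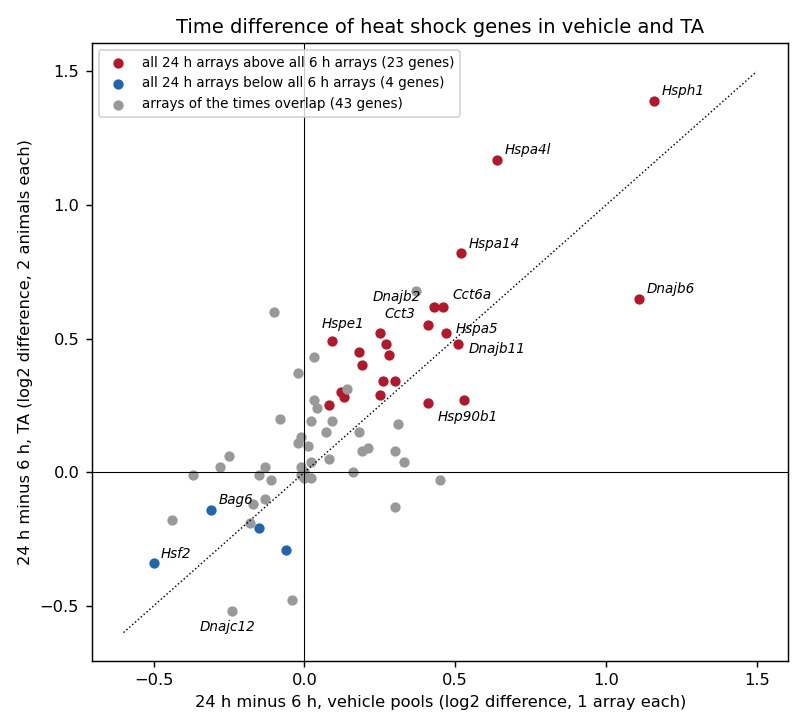
Each point is 1 of the 70 heat shock or co-chaperone genes past the filter, with the log2 difference of 24 h minus 6 h in the vehicle pools (x axis, 1 array each) and in TA (y axis, means of 2 animals each), and the dotted line marks equal differences. Hsph1 lies farthest to the upper right at 1.16 and 1.39, and Hsf2 lies at the lower left. The 23 genes whose 24 h arrays all lie above the 6 h arrays lie above 0 on both axes, which follows from that definition.

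The time differences of vehicle and TA share no array. Across the 70 member genes they had a Pearson correlation of 0.75 and a Spearman correlation of 0.70, and across all 10449 genes past the filter 0.53 and 0.52. Without Hsph1 the 69 other members had 0.69 and 0.69. The sign was the same in 56 of the 70 genes (80.0%), against 67.9% of all genes. Genes are not independent replicates, and the vehicle difference lies wholly between the hybridize runs and the TA difference partly, so these values describe the arrays only.

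Hsph1, the HSP110 nucleotide exchange factor of HSP70 and a target of Hsf1, had the largest time difference of the members. Its level was 8.47 in the vehicle pool and 8.09 and 8.19 in the TA animals at 6 h, and 9.63, 9.76 and 9.29 at 24 h. All 24 h arrays stood above all 6 h arrays, with a gap of 0.82 between the groups. The difference was 1.39 ± 0.19 in TA (SE, 2.61-fold, limma adjusted p = 0.18) and 1.16 ± 0.27 in vehicle (2.23-fold). A second, dimmer probe set of the gene went from 4.23, 4.59 and 4.45 to 5.79, 6.54 and 5.68, a difference of 1.59 ± 0.33 in TA. Hspa4l, another HSP110 family member, was at 4.29, 3.93 and 3.80 at 6 h and at 4.94, 5.61 and 4.45 at 24 h. Those values are near the dim end of the scale, and the 24 h arrays spread by more than the gap of 0.16 between the times. Hspa4, the third of the family, overlapped between the times, with 1 low value of 5.26 in TA animal 1 of 24 h against 6.16 to 6.57 on the 5 other arrays.

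Among the HSP70 proteins, Hspa14, a ribosome-associated member, was at 8.64 in the vehicle pool and 8.19 and 8.43 in TA at 6 h, and at 9.16, 9.36 and 8.89 at 24 h. The groups did not overlap, and the difference in TA was 0.82 ± 0.21. Hspa1a, the strongly heat-inducible HSP70, stayed between 3.42 and 3.65 on all arrays, close to the floor of the values, in TA as in vehicle. Hspa2 was also near the floor. Hspa9, the HSP70 of the mitochondrial matrix, was abundant at 12.48 to 12.86 and overlapped between the times, with -0.10 ± 0.16 in TA.

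A list of 10 measured genes of the heat shock response takes in the mitochondrial Hspd1 and Hspe1 and the constitutive Hsp90ab1. In 6 of the 10 all 24 h arrays lay above the 6 h arrays, and in 0 below (13.3% and 15.1% of all genes). On the brightest probe sets all 10 had a positive difference in both TA and vehicle, against 3033 of 10449 genes. In vehicle Hspd1 had only 0.02, and the other probe set of Hsp90ab1 had -0.09. The median difference of the list was 0.29 in TA and 0.20 in vehicle, against 0.00 and -0.01 over the 10449 genes. None of the 10 passed limma's adjusted test in TA. Hsp90ab1, the constitutive cytosolic HSP90, was at 11.32, 11.29 and 11.24 at 6 h and at 11.58, 11.65 and 11.57 at 24 h. Its groups were tight and apart, and the difference in TA was 0.34 ± 0.08. Its other probe set overlapped, at 11.24, 11.33 and 10.96 at 6 h and 11.15, 12.07 and 11.59 at 24 h.

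Dnaja1, a DnaJ partner of cytosolic HSP70, was at 12.96, 12.91 and 12.73 at 6 h and at 13.04, 13.07 and 13.06 at 24 h, a small but ordered difference of 0.25 ± 0.10 in TA and 0.08 ± 0.14 in vehicle. Its dimmer probe set had 0.47 ± 0.14 in TA. Dnajb1, the classic inducible HSP40, was at 10.08, 9.95 and 9.82 at 6 h and at 10.17, 10.53 and 10.22 at 24 h. The difference was 0.09 in vehicle and 0.49 ± 0.14 in TA, and the difference between these was not called (limma adjusted p = 1.0). The dimmer probe set of Dnajb1 overlapped, at 7.12, 7.08 and 6.78 at 6 h and 7.12, 7.57 and 6.99 at 24 h. It had 0.35 ± 0.26 in TA. Hspb8, a small heat shock protein that works with Bag3, was at 9.88, 9.76 and 9.76 and then at 10.05, 10.31 and 10.10, with 0.45 ± 0.11 in TA, and its other probe set had 0.46 ± 0.10. Bag3 itself, the Hsf1-responsive exchange factor, was at 6.96 to 7.20 at 6 h and at 7.15 to 7.26 at 24 h, which overlap. Hspb1 also overlapped, between 5.88 and 6.63.

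**Figure D2:**
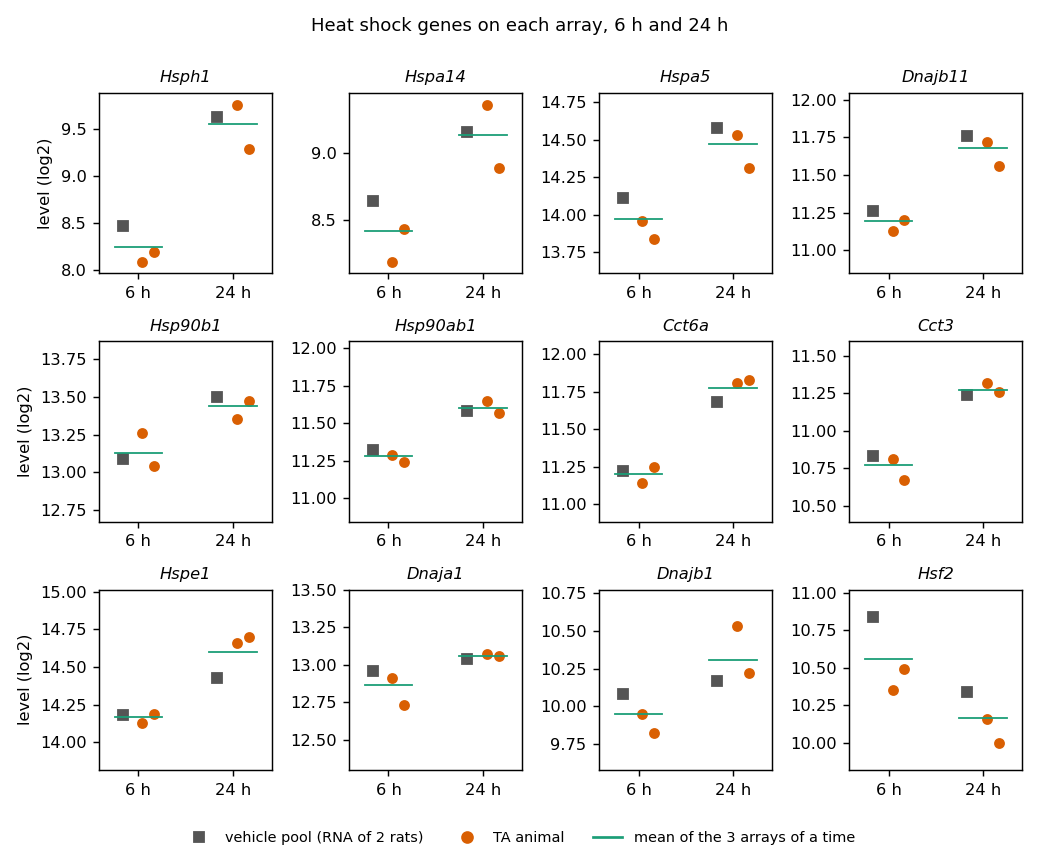
Levels (log2) of 12 heat shock genes on each array, with squares for the vehicle pools, circles for the single TA animals and lines for the mean of the 3 arrays of a time. All 3 arrays of 24 h lie above those of 6 h for 11 genes, as for Hsph1 with 8.09 to 8.47 against 9.29 to 9.76, and below them for Hsf2. Only genes whose arrays do not overlap between the times are shown. Of all 70 member genes, 23 were above (32.9%, against 13.3% of all genes) and 4 below (5.71%, against 15.1%).

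Promoter windows from RefSeq (build GRCr8, 250 bases before to 50 after the start of each gene) were found for 66 of the 79 genes and searched on both strands for the heat shock element, taken as 3 alternating blocks (GAA, TTC, GAA or TTC, GAA, TTC) with 2 bases of any kind between neighbours. It occurred in 5 of the 66 (7.58%), against 267 of 33469 promoters (0.798%). The 5 were Hsph1, Dnaja1, Hspe1, Hspd1 and Cct4. A pair of blocks, GAA and TTC 2 bases apart, which the full element contains, occurred in 13 of the 66 (19.7%), against 8.59% of all. A match in these windows is a description of the letters and not of binding. The windows of 3 genes whose 24 h arrays lay above the 6 h arrays are shown, each 5′ to 3′ on the strand of its gene, with the element in capitals. They lie at chr12:10427118-10427417 (+) for Hsph1, chr5:60638154-60638453 (+) for Dnaja1 and chr9:64084077-64084376 (+) for Hspe1.
Hsph1: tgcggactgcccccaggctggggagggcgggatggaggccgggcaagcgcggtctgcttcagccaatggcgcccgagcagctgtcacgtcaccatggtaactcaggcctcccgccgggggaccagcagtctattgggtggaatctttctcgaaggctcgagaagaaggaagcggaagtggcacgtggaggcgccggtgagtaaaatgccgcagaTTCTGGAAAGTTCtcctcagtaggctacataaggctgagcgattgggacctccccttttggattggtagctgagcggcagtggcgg
Dnaja1: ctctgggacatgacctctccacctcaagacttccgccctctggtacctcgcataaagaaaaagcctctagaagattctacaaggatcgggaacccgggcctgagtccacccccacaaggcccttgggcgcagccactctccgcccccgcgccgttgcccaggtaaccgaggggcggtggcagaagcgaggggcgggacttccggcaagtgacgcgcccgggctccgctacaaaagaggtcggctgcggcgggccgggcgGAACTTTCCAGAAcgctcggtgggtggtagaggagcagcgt
Hspe1: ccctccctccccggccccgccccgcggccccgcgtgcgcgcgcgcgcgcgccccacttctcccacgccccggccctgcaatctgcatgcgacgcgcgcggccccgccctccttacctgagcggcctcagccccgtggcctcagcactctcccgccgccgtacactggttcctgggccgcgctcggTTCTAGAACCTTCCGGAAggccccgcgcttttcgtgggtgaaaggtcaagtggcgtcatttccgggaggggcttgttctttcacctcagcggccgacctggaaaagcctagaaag
Counted from the start of the gene, the element lies at -36 to -24 in Hsph1, at -65 to -48 in Hspe1, where overlapping matches make a longer run, and at 10 to 22, inside the transcript, in Dnaja1. Hspd1 is transcribed away from Hspe1 with its start 290 bases off, and 211 bases of the windows are the same, this element included.

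Hspe1 and Hspd1 encode the co-chaperonin and the chaperonin ring of the mitochondrial matrix. Hspe1 was at 14.18, 14.13 and 14.19 at 6 h and at 14.43, 14.66 and 14.70 at 24 h. The 24 h arrays were all higher, by 0.52 ± 0.08 in TA and 0.25 ± 0.11 in vehicle. Hspd1, from the shared promoter, was at 13.21, 13.42 and 13.13 and then at 13.23, 13.32 and 13.61, which overlap. Cct4, with the element at 26 to 38 after its start, was at 11.42 to 11.60 at 6 h and at 11.60 to 11.61 at 24 h, a difference of 0.10 ± 0.10 in TA.

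Among the TRiC subunits, 4 of the 7 member genes had all 24 h arrays above the 6 h arrays and 0 below, against 13.3% and 15.1% of all genes. Cct6a was at 11.22, 11.14 and 11.25 at 6 h and at 11.68, 11.81 and 11.83 at 24 h, a difference of 0.62 ± 0.09 in TA and 0.46 ± 0.12 in vehicle. Cct3 went from 10.83, 10.81 and 10.67 to 11.24, 11.32 and 11.26, or 0.55 ± 0.09 in TA. In both genes the gap between the times exceeded the whole range within a time. Cct5 and Cct2 had smaller differences of 0.40 ± 0.08 and 0.29 ± 0.16 in TA. Cct7, Cct4 and Cct8 overlapped between the times, and so did Tcp1, the eighth subunit, at 11.87 to 12.16. The dimmer probe set of Cct8, at 6.51 to 7.03 at 6 h and 7.41 to 7.77 at 24 h, did not overlap. A dim probe set of Cct6a, at 4.40 to 5.06, had the opposite sign, -0.34 ± 0.19 in TA.

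In the ER list, 3 of 8 genes had all 24 h arrays above the 6 h arrays and 0 below, against 13.3% and 15.1% of all genes, a small list for such a count. Hspa5 (BiP), the HSP70 of the ER and a regulator of ER stress signalling, was among the brightest members, at 14.11, 13.96 and 13.84 at 6 h and at 14.58, 14.53 and 14.31 at 24 h. The difference was 0.52 ± 0.12 in TA and 0.47 ± 0.17 in vehicle, alike within their errors. Dnajb11, an ER-lumen DnaJ partner of BiP, was at 11.26, 11.13 and 11.20 and then at 11.76, 11.72 and 11.56, with 0.48 ± 0.10 in TA and 0.51 ± 0.14 in vehicle. Hsp90b1 (GRP94), the HSP90 of the ER, was at 13.09, 13.26 and 13.04 and then at 13.50, 13.35 and 13.47. Dnajc3, which restrains the kinase PERK, overlapped between the times at 12.08 to 12.50, as did Dnajb9 at 10.90 to 11.93, a direct target of the unfolded protein response. The ER stress element, taken as CCAAT and CCACG with 9 bases of any kind between them, was found on either strand in the windows of Hspa5, Hsp90b1 and Dnajc3, 3 of the 66 (4.55%), against 0.0657% of all promoters. The windows of Hspa5 and Hsp90b1, whose 24 h arrays lay above the 6 h arrays, are shown with the element in capitals, from chr3:38452766-38453065 (+) for Hspa5 and chr7:23012244-23012543 (-) for Hsp90b1.
Hspa5: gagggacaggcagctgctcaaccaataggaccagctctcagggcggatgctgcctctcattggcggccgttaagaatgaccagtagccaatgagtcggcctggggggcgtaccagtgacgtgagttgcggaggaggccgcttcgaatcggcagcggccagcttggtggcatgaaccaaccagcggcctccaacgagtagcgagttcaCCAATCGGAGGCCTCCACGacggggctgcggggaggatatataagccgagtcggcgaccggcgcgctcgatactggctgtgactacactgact
Hsp90b1: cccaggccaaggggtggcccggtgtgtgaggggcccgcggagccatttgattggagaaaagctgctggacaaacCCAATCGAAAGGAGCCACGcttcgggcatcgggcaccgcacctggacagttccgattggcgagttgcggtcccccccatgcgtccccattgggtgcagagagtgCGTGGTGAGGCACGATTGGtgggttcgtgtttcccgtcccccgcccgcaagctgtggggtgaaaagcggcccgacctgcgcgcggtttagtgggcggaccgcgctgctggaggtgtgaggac
Counted from the start, the element lies at -43 to -25 in Hspa5, and Hsp90b1 holds 2 copies in opposite orientation, at -176 to -158 and at -72 to -54.

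Of the 39 DnaJ genes on the arrays, 36 were past the filter, and 11 had all 24 h arrays above the 6 h arrays and 2 below, against 13.3% and 15.1% of all genes. Beside Dnaja1, Dnajb1 and Dnajb11 the higher ones included Dnajb2, a ubiquitin-binding DnaJ protein, at 9.27 to 9.76 at 6 h and 9.89 to 10.29 at 24 h, and Dnajb4, at 8.94 to 9.19 and 9.22 to 9.74. Dnajb6, which suppresses the aggregation of polyglutamine proteins, was at 6.92 to 6.98 at 6 h and at 8.09 in the vehicle pool and 7.09 and 8.11 in the TA animals of 24 h, so that TA animal 1 of 24 h stayed near the 6 h level. Dnajc8, Dnajc14, Dnajc24, Dnajc5 and Dnajc11 had differences of 0.27 to 0.44 in TA. Dnajc13, an endosomal protein, and Dnajb12, of the ER membrane, were the 2 lower ones, at -0.29 ± 0.09 and -0.21 ± 0.13. Dnajc12, a co-chaperone of the aromatic amino acid hydroxylases, had a difference of -0.52 ± 0.13 in TA but overlapped, since the vehicle pool of 6 h, at 9.99, lay below TA animal 1 of 24 h at 10.01.

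Hsf2, a heat shock factor that can form trimers with Hsf1, ran the other way on the probe sets that detected it. Its brightest probe set was at 10.84, 10.35 and 10.49 at 6 h and at 10.34, 10.16 and 10.00 at 24 h, with -0.34 ± 0.11 in TA and -0.50 ± 0.16 in vehicle, with its lowest 6 h array at 10.35 and its highest 24 h array at 10.34. A second was at 6.55, 6.43 and 6.53 and then at 5.80, 5.47 and 5.66, a clear gap of 0.62 and the smallest p of the members, with -0.91 ± 0.11 in TA (limma adjusted p = 0.18). The third had -0.35 ± 0.09, and the fourth, near the floor, had 0.00 ± 0.08. Hsf1, whose activity is set mainly after translation, was dim at 4.37 to 4.56 and overlapped. Of the BAG genes, Bag6, a chaperone of newly made membrane proteins, was lower at 24 h on its brightest probe set (6.93 to 7.22, then 6.81 to 6.91). The gap was 0.02 and the difference in TA was -0.14 ± 0.08. Its dimmer probe set overlapped, with 0.01 ± 0.08 in TA. Bag1, the exchange factor of cytosolic HSP70, overlapped at 9.43 to 9.74.

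Partners of the chaperones that the symbol rule does not take in were read as a list of 23 genes. All 24 h arrays lay above the 6 h arrays in 6 of them and below in 3, against 13.3% and 15.1% of all genes, so that the lower ones were no more frequent than among all genes. In TA 0 passed limma's adjusted test, and 8 of the 23 had an unadjusted p under 0.05, against 1774 of all 10449 genes. The 8 count both directions, and Stub1 among them was lower, at -0.38 ± 0.12. Fkbp4, a prolyl isomerase bound to HSP90, was at 10.27, 10.22 and 10.14 at 6 h and at 11.20, 11.59 and 11.49 at 24 h, with 1.36 ± 0.09 in TA (limma adjusted p = 0.14). Stip1 (Hop), which links HSP70 to HSP90, went from 9.10, 9.25 and 9.06 to 10.07, 10.19 and 10.07. Chordc1, an HSP90 partner, went from 10.08, 9.96 and 10.05 to 10.95, 11.08 and 10.86. In these 3 genes the gap between the times was wider than the spread within either time. Ahsa1 and Ptges3 (p23), which speed up and slow down the HSP90 ATPase, had 0.57 ± 0.08 and 0.38 ± 0.10 in TA, and Hyou1, the large HSP70 of the ER, had 0.79 ± 0.20. The 3 lower genes were the ubiquitin ligase Stub1, the BiP exchange factor Sil1 and the collagen chaperone Serpinh1. Serpinh1 was at 9.34 in TA animal 1 of 6 h against 7.18 to 8.03 on the other arrays.

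Genes that report temperature and time of day were also read, since they bear on how the 2 times differ. The cold-inducible RNA binding genes Cirbp and Rbm3, which go down as body temperature goes up, were both lower at 24 h on all arrays. Cirbp was at 7.64, 7.68 and 7.59 and then at 7.24, 7.14 and 6.49, and Rbm3 at 10.01, 9.85 and 9.92 and then at 9.14, 9.42 and 9.22. Of 12 clock genes past the filter, 4 had all 24 h arrays above and 3 below, against 13.3% and 15.1% of all genes. Per2 was at 5.0 to 5.72 at 6 h and at 8.49 to 8.87 at 24 h, Cry1 at 4.19 to 5.40 and 8.75 to 8.91, and Dbp at 6.85 to 8.51 and 3.56 to 4.91. The differences of these 3 clock genes were larger than that of Hsph1, while Clock itself differed by 0.19 in TA. The part of temperature and hour of day in the heat shock genes was not tested.

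**Figure D3:**
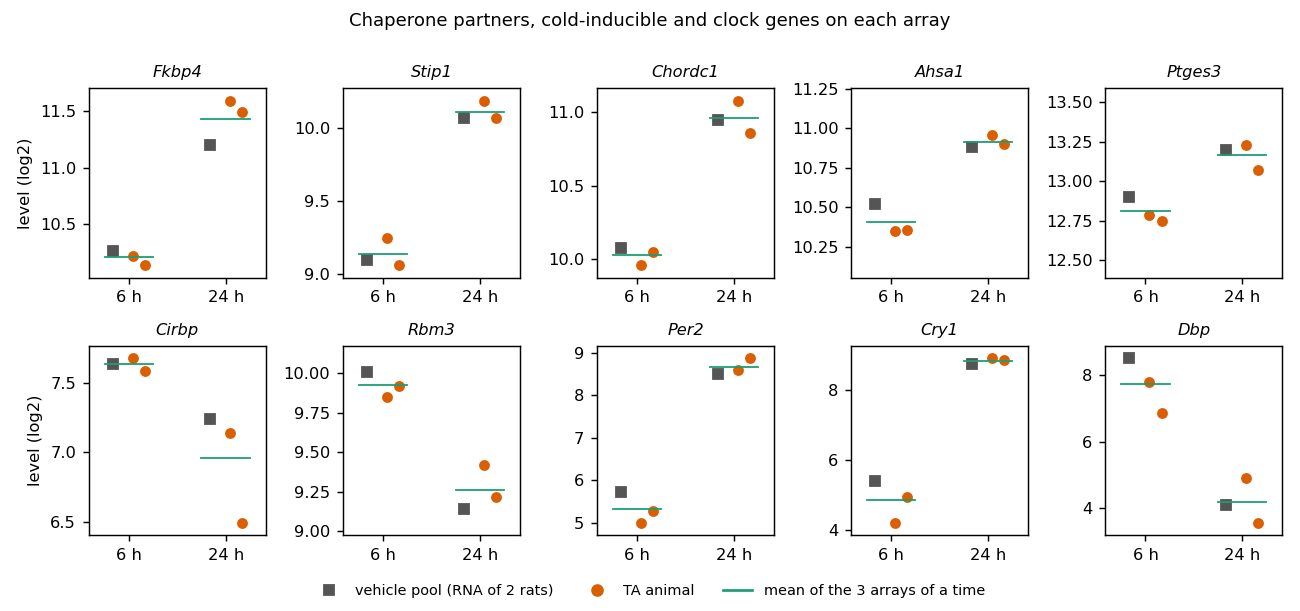
Levels (log2) of 5 chaperone partners, 2 cold-inducible genes and 3 clock genes on each array, drawn as squares for vehicle pools and circles for TA animals, with the mean of the 3 arrays of a time as a line. Fkbp4, Stip1, Chordc1, Ahsa1 and Ptges3 are higher at 24 h on every array, Cirbp and Rbm3 are lower, and Per2 and Cry1 differ from Dbp in direction. The partners shown are among the 6 of 23 listed that were higher in this way, and 3 of the 23 were lower.

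Markers of other cells and of RNA quality were set beside these differences. Of the 3 stellate cell and fibroblast markers past the filter, of 5 measured, 2 had all 24 h arrays below the 6 h arrays and 0 above, while Des and Rgs5 were near the floor, and their summed level was 10.19 to 11.25 at 6 h and 9.26 to 9.98 at 24 h (log2). The sinusoidal endothelial list had 2 of 4 below and sums of 12.38 to 12.70 and 12.07 to 12.59, and the macrophage list 1 of 4 below and sums of 12.24 to 12.54 and 11.91 to 12.28. The cholangiocyte list had 1 of its 2 markers past the filter below, with sums of 9.72 to 10.57 at 6 h and 9.17 to 9.71 at 24 h. Hepatocyte markers summed to 17.91 to 17.99 and 17.89 to 17.92, with 1 of 5 genes below. The lists of neutrophils, lymphocytes and erythroid cells had 0 genes apart. The difference between 3′ and 5′ probe sets was 1.92 to 2.26 at 6 h and 1.82 to 2.04 at 24 h for GAPDH, and 4.17 to 4.33 and 4.28 to 4.36 for actin. The part of these in the time differences was not tested. In whole liver, fewer cells of a type and less RNA per cell cannot be told apart.

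For TA against vehicle, the comparison the study asked about, the counts of members lay near the shares over all probe sets and single out no member. At 6 h, 0 of 94 member probe sets were called by limma (0% of all), and at an unadjusted p under 0.05, 0 were higher (1.58% of all) and 4 lower (4.26%, against 4.25%). At 24 h, 0 of 94 were called (0.00537% of all), with 3 higher (3.19%, against 1.99%) and 3 lower (3.19%, against 3.3%). These counts rest on 1 pool per time and on single animals. Against the pool of the other time, the lower count was 14 at 6 h and the higher count 16 at 24 h. That comparison takes in the difference between the times, so its counts cannot show how far the results rest on the pool. No share over all probe sets is given for it. Against the pool of the same time, the counts went up or down when a TA animal was left out. No share over all probe sets is given for those fits either. The members' median was then -0.10 to -0.04 at 6 h and -0.02 to 0.03 at 24 h. The smallest adjusted p among members was 0.80 at 6 h and 0.90 at 24 h. In 0 of 94 did both TA animals of 6 h lie at least 0.5 above (1.17% of all) or below (2.54% of all) their pool. At 24 h the same counts were 0 above (1.3% of all) and 1 below (2.25% of all). The median difference over the members was -0.06 at 6 h and -0.01 at 24 h, against -0.02 and -0.01 over all probe sets.

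Single genes of the heat shock response are given as values. On its brightest probe set Hsph1 had -0.38 and -0.28 in the TA animals of 6 h and 0.13 and -0.34 in those of 24 h, against their pools. Its dimmer probe set had the opposite sign at 6 h, with 0.36 and 0.22, and had 0.75 and -0.11 at 24 h. Hspa1a had 0.01 and 0.02 at 6 h and 0.02 and -0.21 at 24 h. Hsp90ab1 was within 0.07 on its brightest probe set, while its other probe set had 0.09 and -0.28 at 6 h and 0.91 and 0.44 at 24 h. Hspe1 had -0.05 and 0.01 at 6 h and 0.24 and 0.27 at 24 h, a difference of 0.26 ± 0.10 at 24 h (limma adjusted p = 0.95). Bag3, Dnaja1 and Dnajb1 had 0.16, -0.14 and -0.20 at 6 h and -0.06, 0.02 and 0.21 at 24 h. At the median SE of 0.15 for a difference of TA from vehicle, differences of this size were not detectable one by one.

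The member set furthest from vehicle in both animals of 24 h was Hspb6, a small heat shock protein of smooth muscle. It was at 5.24 in the vehicle pool and 4.26 and 4.52 in TA, a difference of -0.86 ± 0.22 (limma adjusted p = 0.90), and at 4.80 in the pool and 4.25 and 4.60 in TA at 6 h. The TA levels of 24 h were thus within those of 6 h, and the vehicle pool of 24 h was the highest array. Hspa13, a microsome-associated HSP70, was lower in all 4 TA animals, with 9.51 and 9.75 against 10.11 at 6 h and 9.71 and 9.64 against 10.13 at 24 h. Both pools stood above all 4 TA animals, with -0.48 ± 0.15 at 6 h and -0.46 ± 0.15 at 24 h (limma adjusted p = 0.84 and 0.93). Hsf2 was also below its pool in all 4 TA animals on its brightest probe set, by -0.43 at 6 h and -0.27 at 24 h, and so were its 3 other probe sets. Against the pool of 24 h the 6 h value of the brightest probe set was 0.07. That comparison takes in the difference between the times, which was -0.50 in vehicle on this probe set. The sign at each time still rests on 1 pool. Dnajb9 was at 10.90 and 11.46 against 11.72 at 6 h, and Dnajc7, a co-chaperone that bridges HSP70 and HSP90, was higher in all 4, with 8.21 and 7.52 against 7.44 at 6 h and 8.06 and 8.29 against 7.58 at 24 h.

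The other genes with the smallest p in these comparisons differed by less. Dnajc19, of the mitochondrial import motor, was at 13.00, 13.05 and 13.03 at 6 h and at 13.03, 13.32 and 13.31 at 24 h, so that both TA animals of 24 h stood above the 4 other arrays, with 0.28 ± 0.09 against vehicle (limma adjusted p = 0.93). A second probe set of Dnajc5, the synaptic cysteine string protein, had the smallest p of the members at 24 h, at 6.17 in the pool and 6.62 and 6.57 in TA. Its brightest probe set, at 9.83, 9.79 and 9.85, did not share that difference. Dnajc30, a mitochondrial DnaJ protein, was higher in all 4 TA animals than in its pool, by 0.18 ± 0.09 at 6 h and 0.23 ± 0.09 at 24 h. Bag2 was at 3.46 in the 6 h vehicle pool and at 3.08 to 3.10 elsewhere, and Bag4 at 3.47 there and at 3.00 to 3.36 elsewhere, both near the floor. Dnajc10, an ER reductase, had -0.30 ± 0.17 at 6 h on its brightest probe set and 0.42 ± 0.32 on another. Dnajc2, a ribosome-associated DnaJ protein, had 0.21 ± 0.14 at 6 h, and Dnajb5 had -0.32 ± 0.17 at 24 h.

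**Figure D4:**
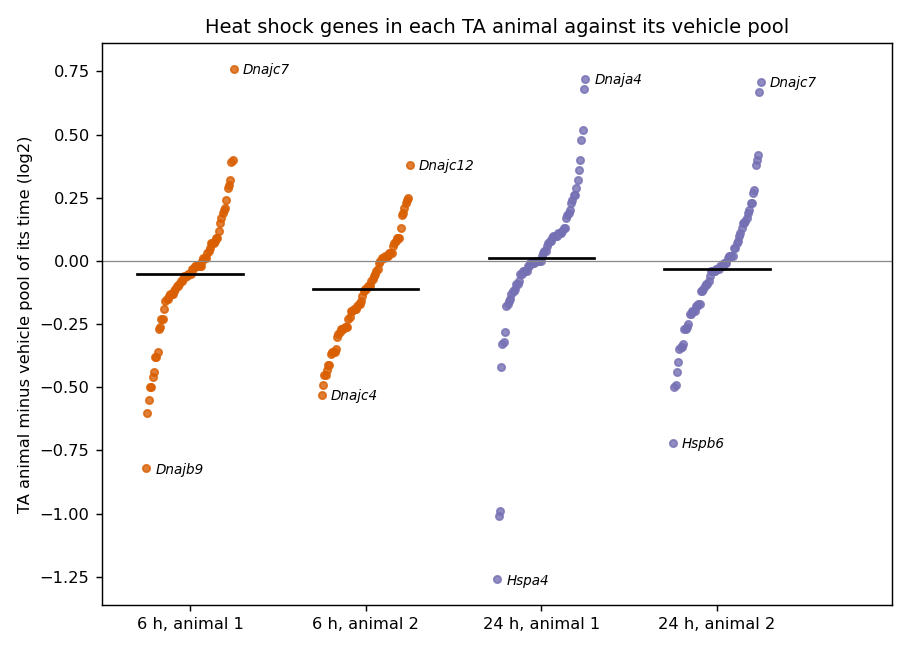
Log2 difference of each TA animal from the vehicle pool of its time for the 70 member genes, sorted within each animal, with the median as a bar and the lowest and highest gene named. The medians lie between -0.11 and 0.01, and the extremes differ between animals, as for Hspa4 at -1.26 in animal 1 but -0.09 in animal 2 of 24 h.

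Whether the effect of TA differed between the times, which is the same as whether time acted alike in vehicle and TA, was tested as the difference of both effects. It was called for 0 of 94 members in limma's test (0.00537% of all), with 1 higher (1.06%, against 2.89% of all) and 0 lower (0%, against 1.91%) at an unadjusted p under 0.05. Its median SE over all probe sets was 0.22 with few degrees of freedom. Dnaja4, at 0.69 ± 0.41, and the second probe set of Hsp90ab1, at 0.77 ± 0.41, were not called (limma adjusted p = 1.0 each). Their own SE was above the median. The counts moved when a TA animal was left out, and no share over all probe sets is given for those fits. The members' median of this difference was then 0.04 to 0.12, against 0.09 with all arrays. With all arrays, the 1 higher probe set was a second probe set of Cct5. It was at 10.15 in the 24 h vehicle pool against 10.45 and 10.47 in TA, and at 9.95, 9.85 and 9.86 at 6 h. The brighter probe set of Cct5 had 0.22 for the same difference.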

How the data were processed

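The deposited table of 6 Affymetrix Rat230_2 arrays was used, with values on a log2 scale made by the authors. Per the submitters' processing notes, the tools were R 2.0.1, affy 1.5.8, RMA and GCRMA. Whether RMA or GCRMA produced the deposited values was not stated there. Values near 2 to 3 form a floor at which differences are compressed. Precision is limited by the number of arrays.

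The 57 control probe sets were left out and the 18625 probe sets with a mean above the 40th percentile (2.82) tested. A limma model (version 3.58.1, R 4.3.3) with 1 mean per group (2 residual and 1.6 prior degrees of freedom) gave contrasts of TA with vehicle at each time, 24 h with 6 h in each treatment, and their difference, two-sided, adjusted by Benjamini-Hochberg and called under 0.05. The fit was tested on simulated data. Genes were named by a rule: 20 chosen ones where measured (3 of them, Hspa1b, Hspa8 and Hsp90aa1, were not), the 6 each way with the smallest p in each contrast, and those whose arrays do not overlap by time and differ by at least 1, or with both TA animals at least 1 from their pool. Cct2, Cct4, Cct7, Cct8, Hspa14, Hspa4l, Hspa4, Hspa2, Dnajb2, Dnajb6, Dnajc8, Dnajc24, Dnajc5, Dnajc11 and Bag1 lie outside it and were chosen after their values were seen, as was the second Cct5 probe set. The members, lists and rule were chosen with earlier results of these data known. Symbols of all 120 members matched the reference by gene identifier. Replicate numbers name different animals at each time and do not pair them.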

Additional observations from a re-analysis of the deposited data

Results flagged for a closer look

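Only the 6 members each way with the smallest p for the difference of the effects were looked at. In 6 of these genes both TA animals lay on one side of the vehicle pool at 6 h and on the other side at 24 h. Members outside this cut did so too, such as Dnajb1, at -0.13 and -0.26 and then 0.36 and 0.05. Cct5, at -0.08 and -0.10 and then 0.10 and 0.15, was another. No count over all members or all genes is given. The difference of the effects, 24 h minus 6 h, was 0.69 for Dnaja4, -0.43 for Hspbp1, 0.39 for Dnajc15, 0.28 for Bag5, -0.22 for Bag3 and -0.17 for Hspb7. In limma's test of the difference each had an adjusted p of 1.0, and each time rests on 1 vehicle pool. For Dnaja4, a DnaJ protein of the cytosol, the animals differed from their pool by -0.13 and -0.37 at 6 h and by 0.72 and 0.16 at 24 h, and its dim second probe set had -0.09 and 0.05 at 6 h and 0.20 and 0.27 at 24 h. For Hspbp1 they differed by 0.32 and 0.13, then by -0.17 and -0.25.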

How the results depend on the processing

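Under every alternative run, 0 members were called in each of the 5 contrasts. The members' median of TA minus vehicle at 6 h was -0.12 with both vehicle pools as 1 control group, -0.12 against the pool of 24 h and -0.01 with quantile normalization. At 24 h it was 0.05 with both pools and 0.09 against the pool of 6 h. Settings that use the pool of the other time also take in the difference between the times. The median of 24 h minus 6 h in TA was 0.02 with no filter. It was 0.08 to 0.21 when a TA animal was left out, and 0.21 with the hybridize run as a block. Only the TA group of 6 h was spread over both runs. The block fit of this contrast therefore equals leaving out TA animal 1 of 6 h. Run and animal cannot be told apart there, so the block is no separate check of the run. In vehicle the median of 24 h minus 6 h was 0.17 with the run as a block and 0 with no filter. There too the run difference comes from the TA animals of 6 h alone. The additive model, which fits 1 time difference for both treatments, had a median of 0.13. The difference of effects had a median of 0.03 with no filter and 0.03 with quantile normalization. The members with all 24 h arrays above were 31 to 37 when a TA animal was left out (13.2% to 15.3% of all probe sets), and those below 9 to 14 (17.9% to 31.3%). They were 33 and 5 with quantile normalization (15.7% and 10.2% of all), 29 and 6 with centred arrays (15.4% and 9.99%), and 49 and 18 in the second hybridize run alone (24.3% and 39.6%). For TA at 24 h, 1 member was higher by 0.5 with quantile normalization, and beyond both pools 0 were lower.

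With a replicate block, in which the numbers pair no animals and the deviations of equal numbers correlated at -0.0789, 0 members were called in TA between the times, as without it, and the median was 0.14. Some signs turned. Against the pool of 24 h the 6 h values were -0.14 for Bag3, 0.07 for Hsf2, -0.08 for Hspbp1, -0.30 for Dnajc14, -0.12 for Dnajc2 and 0.05 for Bag6. With both pools Dnajc14 had -0.04, and Hspbp1 at 24 h had 0.09 against the pool of 6 h. For 24 h minus 6 h in TA, with the run as a block Bag3 had -0.01 and Hspa9 0.04. That fit again amounts to leaving out a TA animal of 6 h. With quantile normalization Dnajc3 had -0.06 for the same difference. When a TA animal was left out, the values were -0.01 to 0.16 for Bag3, -0.10 to 0.13 for Dnajc3, -0.01 to 0.11 for Hsf1, -0.03 to 0.20 for Hspa1a, -0.24 to 0.05 for Hspa9 and -0.28 to 0.47 for Hspb1. The causes of these shifts were not tested. The lowest levels, near the floor, limit what could be seen for Hspa1a, Hspa2 and the dim members.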
